A study of Mus musculus with 3 samples.

Results

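miR-25 and miR-92a are microRNAs, short RNAs that repress messenger RNAs, and they share the bases by which a microRNA finds its targets. They were measured in the blood serum of tumour-bearing mice and were chosen by probe name, which gave 2 of the 566 deposited probes. The labels put the panel at 527 miRNAs. No starred (opposite arm) probe of either was among the deposited ones. All animals were female BALB/c mice, 6 to 8 weeks old when obtained, with 100000 4T1 cells, a mouse line of triple-negative breast cancer, placed in the mammary fat pad, and the study ended on day 28. The Tn+ tumours came from 4T1 cells in which CRISPR/Cas9 targeted Cosmc, the chaperone needed to extend O-glycans, so that the truncated glycan Tn is exposed. The labels describe the cells of the Tn- tumours no further than 4T1, and they do not say whether the Tn+ line was 1 clone. Animals of one Tn status had their serum combined ahead of RNA extraction, which left 2 pooled Tn+ sera, called Tn+ serum 1 and 2, and 1 pooled Tn- serum. The sources used here give neither the number of mice in each pool nor whether the Tn+ sera held separate mice. Any p-value then reflects the spread between pools alone, which may be technical, and Tn- serum has no replicate.

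A microRNA is processed from a hairpin, and its seed (bases 2 to 8) pairs with target messages. microRNAs with the same seed share predicted targets, but they can be made from different primary transcripts. miR-25 lies with miR-106b and miR-93 inside Mcm7, which encodes a subunit of the replicative helicase. miR-92a has a pair of genes, one at the end of the miR-17 cluster (within the lncRNA Mir17hg) and one in the miR-106a to miR-363 cluster on the X chromosome. Both clusters are known to be induced by MYC and E2F factors in proliferating cells. In human blood, miR-25 and miR-92a are both known as red cell microRNAs, and miR-92a is abundant in plasma.

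The mature sequences of all 6 mouse microRNAs with this seed (RefSeq, GRCm38.p6) are shown because the report turns on what they share. Capitals mark the seed.
miR-25 (miR-25-3p, chr5:138165332-138165353, minus strand): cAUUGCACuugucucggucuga
miR-92a (miR-92a-3p, chr14:115044476-115044496, plus strand, and chrX:52741854-52741874, minus strand): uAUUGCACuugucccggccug
miR-92b (miR-92b-3p, chr3:89227126-89227147, minus strand): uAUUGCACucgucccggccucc
miR-32 (miR-32-5p, chr4:56895272-56895293, minus strand): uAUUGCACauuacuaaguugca
miR-363 (miR-363-3p, chrX:52741697-52741718, minus strand): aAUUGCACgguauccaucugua
miR-367 (miR-367-3p, chr3:127545779-127545800, plus strand): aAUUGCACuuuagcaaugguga
Set side by side from the 5′ end, miR-25 and miR-92a were identical at 18 of 21 positions. The differences, with the miR-25 base first and positions counted from 1 at the 5′ end, were C1U, U14C and U18C, all outside the seed, and miR-25 has 1 more base at its 3′ end. miR-92b matched miR-92a at 19 of 21 positions, and miR-363 matched it at 10 of 21. The other 4 members of the seed family all have a probe on the panel.

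The precursor hairpins are shown because they differ between the 3 genes while the mature arm, in capitals, is the same for both miR-92a genes.
Mir25 (chr5:138165321-138165404, minus strand): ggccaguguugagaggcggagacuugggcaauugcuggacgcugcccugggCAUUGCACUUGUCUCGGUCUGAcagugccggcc
Mir92-1 (chr14:115044427-115044506, plus strand): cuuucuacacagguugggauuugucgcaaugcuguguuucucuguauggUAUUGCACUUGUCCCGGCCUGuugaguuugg
Mir92-2 (chrX:52741838-52741928, minus strand): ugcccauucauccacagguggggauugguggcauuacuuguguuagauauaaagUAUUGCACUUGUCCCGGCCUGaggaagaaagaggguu
A probe for mature miR-92a therefore cannot say which of its genes, Mir92-1 or Mir92-2, gave the signal.

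All probes together gave a normalized signal of 59444 units in Tn+ serum 1, 31977 in Tn+ serum 2 and 4204 in Tn- serum, and 228, 150 and 85 probes lay above the lowest deposited value, called the floor here. The floor was 1, 1.09 and 1.08 units, and floor values made up 0.569%, 1.42% and 12.4% of the summed signal. The red cell markers miR-451, miR-144, miR-486 and miR-16 together held 79.4%, 53.5% and 50.7% of all signal in the 3 sera. The hepatocyte miRNA miR-122 had 47.3 and 22.4 units in the Tn+ sera and was at the floor in Tn- serum. Within cell-free RNA, more releasing cells and more RNA released per cell cannot be told apart.

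miR-25 (MIMAT0000652) was among the strongest probes of every serum, and miR-92a (MIMAT0000539) was at or near the floor in every serum. miR-25 had 1868 units in Tn+ serum 1, 5513 in Tn+ serum 2 and 104 in Tn- serum. Both Tn+ sera lay far above Tn- serum, and Tn+ serum 2 was the highest. miR-92a had 7.05 units in Tn+ serum 1, the floor of 1.09 in Tn+ serum 2 and 3.73 in Tn- serum. The Tn- value of miR-92a thus lay between those of the Tn+ sera. Low values lay on a regular grid with steps of 0.895, 1.09 and 1.08 units, and miR-92a was 7 grid levels above the floor in Tn+ serum 1 and 3 in Tn- serum.

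**Figure D1:**
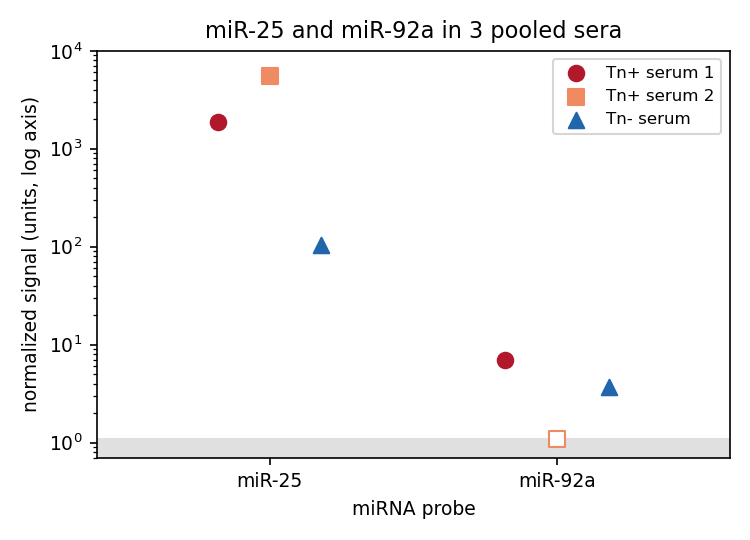
Normalized signal (units, log axis) of miR-25 and miR-92a in the 2 Tn+ sera and Tn- serum; each point is 1 pool, open points are at the floor and the grey band ends at the highest floor, 1.09 units. miR-25 sits between 104 and 5513 units, while miR-92a stays at or below 7.05.

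In the order of levels, miR-25 was the 4th probe of Tn+ serum 1, between miR-1224 (2096 units) and the shared miR-20a and miR-20b probe (1364 units). In Tn+ serum 2 it was the 2nd, between miR-451 (13159 units) and miR-1224 (3565 units). In Tn- serum it was the 6th, between the myeloid and platelet miRNA miR-223 (136 units) and miR-486 (98.6 units). With 1 value per pool, whether miR-25 differed from these neighbours cannot be tested within a pool. miR-92a was tied at place 79 with 9 other probes in Tn+ serum 1 and at place 45 with 10 others in Tn- serum. In Tn+ serum 2 it was 1 of 416 probes at the floor.

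On the deposited scale, the signal of miR-25 was 18.0-fold higher in Tn+ serum 1 and 53.0-fold higher in Tn+ serum 2 than in Tn- serum. The Tn+ mean was 3690 ± 2577 units (SD, n = 2). On log2(signal + 1), the fitted Tn+ minus Tn- difference was 4.93, with an SE of 0.888 and a 95% interval from 1.66 to 8.21. The limma fit over all 566 probes gave miR-25 an adjusted p of 0.305, so it did not pass 0.05, though its unadjusted p was under 0.05. No probe did in that fit (0 of 566, 0%), while 56 higher (9.89%) and 7 lower (1.24%) in Tn+ serum had an unadjusted p under 0.05. Over the 259 probes above the floor somewhere, limma called 29 probes higher (11.2%), miR-25 among them (adjusted p = 0.00101). The SE there was the same for all probes, and a probe could enter that set through its Tn+ level alone. For miR-92a the difference was -0.21, with an SE of 1.10, a 95% interval from -4.27 to 3.86 and an adjusted p of 0.895. That interval spans large differences either way, so the data do not show that miR-92a was alike in Tn+ and Tn- serum.

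A rule of size asked for a signal + 1 in each Tn+ serum of 2-fold or more that of Tn- serum, which miR-25 met and miR-92a did not. That is 1 of 2 members against 68 of all 566 probes (12.0%). Only the 126 probes above the floor in both Tn+ sera could meet the rule, so 12.0% understates its share among abundant probes. Of the 20 probes with 100 units or more in both Tn+ sera, all but miR-142-5p and miR-223 met it. For the 60 probes measured above the floor everywhere, whose median log2 difference was 1.47, miR-25 had the 2nd highest value after miR-21 (5.13). Because the sera differ in total, the difference was also taken after scalings that removed a 3.18-fold (median of ratios), 6.06-fold (geometric mean of the 100 highest probes) and 10.4-fold (equal totals) excess of Tn+ serum. The log2 difference of miR-25 was then 2.58 and 3.97, 1.43 and 3.27, and 0.35 and 2.80 in Tn+ serum 1 and 2, in that order of scalings. It stayed above 0 in each, but with equal totals miR-25 no longer met the 2-fold rule. For miR-92a it was -0.58 and -2.42, -1.57 and -3.01, and -2.61 and -3.81. The scalings also move the floor, and miR-92b, at the floor throughout, came out at -0.96 and -0.98, -1.62 and -1.47, and -2.58 and -2.14. The negative sign of miR-92a in Tn+ serum 1, where the unscaled difference was 0.77, is therefore set by the scaling.

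As a share of all signal, miR-25 differed less between Tn+ serum 1 and Tn- serum than its level did. The share was 3.14% in Tn+ serum 1, 17.2% in Tn+ serum 2 and 2.47% in Tn- serum, so Tn+ serum 1 lay close to Tn- serum and Tn+ serum 2 stood apart. The Tn+ mean exceeded the Tn- value by 7.72 percentage points, by 0.669 without Tn+ serum 2 and by 14.8 without Tn+ serum 1. An exact two-sided permutation test over the 3 sera gave p = 0.667, and the smallest p that 3 pools allow is 0.333. miR-451 alone made up 72.4%, 41.2% and 44.1% of the signal, and without it miR-25 held 11.4%, 29.3% and 4.43%. For miR-92a the share was 0.0119% in Tn+ serum 1 and 0.0887% in Tn- serum. In Tn+ serum 2 its 0.00341% is the share of a floor value. Both Tn+ shares of miR-92a lay below the Tn- share (exact permutation p = 0.333), in pools whose totals differ more than the miR-92a values do.

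**Figure D2:**
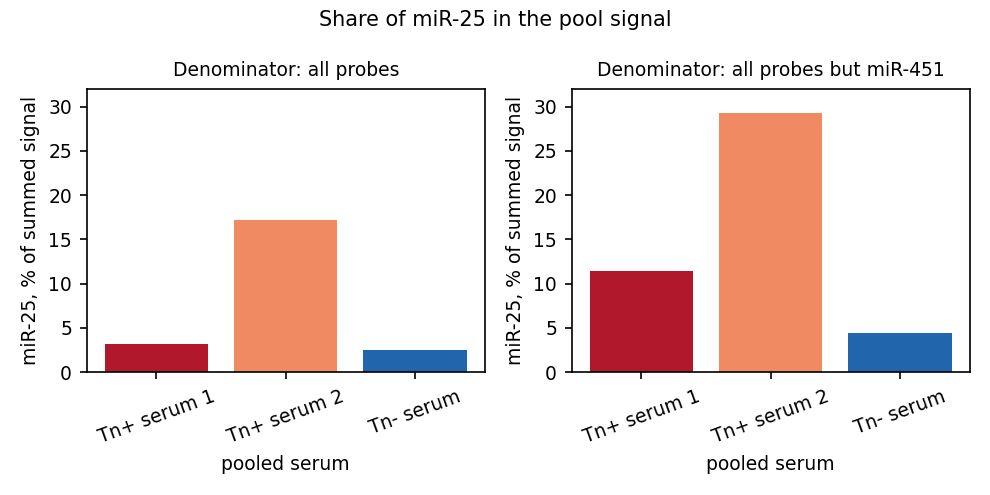
miR-25 as a percentage of the summed signal of each serum pool, over all probes (left) and over all probes but miR-451 (right); each bar is 1 pool and carries no error. Over all probes Tn+ serum 1 (3.14%) stands near Tn- serum (2.47%) and Tn+ serum 2 reaches 17.2%.

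Rescaling a pool does not change the ratio of the members' signals within it. A floor value and the 1 added before log2 do not follow the total of the pool, however. The gap between the members may therefore still depend on that total, and it was not taken again after the scalings. miR-25 had 265-fold the signal of miR-92a in Tn+ serum 1 and 27.9-fold in Tn- serum. In Tn+ serum 2, where miR-92a was at the floor, it had 1689-fold the value of 3 grid steps (3.26 units). On log2(signal + 1) the gap was 7.86, 11.37 and 4.47 in Tn+ serum 1, Tn+ serum 2 and Tn- serum, widest in Tn+ serum 2 and narrowest in Tn- serum. The Tn+ mean gap exceeded the Tn- gap by 5.14, or 4.63 with floor values at 3 grid steps, and the exact permutation p was 0.667 and 0.333, the latter the smallest possible. The efficiency of each probe is unknown, so a ratio between probes is one of signals and not of molecules. How far the probes tell these like sequences apart was not tested. The signal of the miR-92a probe was 0.377% of that of the miR-25 probe in Tn+ serum 1 and 3.59% in Tn- serum.

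The other 4 members of the seed family added almost nothing. miR-32, miR-92b and miR-363 were at the floor in all 3 sera, and miR-367, known from mouse embryonic stem cells, had 1.67 units in Tn+ serum 1 and the floor elsewhere. miR-25 therefore made up nearly the whole family signal, which was 3.16%, 17.3% and 2.66% of the pools. Of the 6 family probes only miR-25 met the 2-fold rule (12.0% of all probes), and none passed limma (0%).

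Within the Mcm7 cluster, all 3 probes met the 2-fold rule and none passed limma (0%). Of all probes 12.0% met the rule, most being too low in the Tn+ sera to do so. miR-106b, which carries the miR-17 seed, had 201 and 53.9 units in the Tn+ sera and was at the floor in Tn- serum. Against 3 grid steps of Tn- serum (3.23 units) these values were 62.3-fold and 16.7-fold. miR-93, also of the miR-17 seed, had 38.4 and 21.3 units and was likewise at the floor in Tn- serum. Both cluster mates were higher in Tn+ serum 1 than in Tn+ serum 2, by 3.73-fold and 1.80-fold, whereas miR-25 was 2.95-fold higher in Tn+ serum 2. The ratio of miR-25 to miR-106b accordingly went from 9.28 in Tn+ serum 1 to 102 in Tn+ serum 2. The 3 microRNAs of the shared transcript thus did not keep a fixed ratio between the Tn+ sera, a comparison of 2 libraries with no test.

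In the miR-17 cluster 4 of the 5 other probes were above miR-92a in both Tn+ sera, and miR-18a was at the floor throughout. The probe shared by miR-106a and miR-17, which share a seed that represses cell cycle inhibitors such as p21, had 506 and 146 units in the Tn+ sera and 30.7 in Tn- serum. The miR-20a and miR-20b probe, of the same seed, had 1364 and 515 units against 50.1. miR-19a, another member of the cluster, had 93.9 and 30.0 units against 3.73, the same Tn- value as miR-92a. miR-19b had 28.5 and 22.4 units against 10.2. These 4 probes were higher in Tn+ serum 1 than in Tn+ serum 2, as miR-92a was. Of the 6 probes of this cluster 4 met the 2-fold rule (12.0% of all probes) and none passed limma (0%). After all 3 scalings miR-19b lay below Tn- serum in both Tn+ sera, and the miR-106a and miR-17 probe did so in Tn+ serum 2 after the top-100 and equal-total scalings. In the miR-106a to miR-363 cluster, which shares 4 of those probes, 3 of 6 met it.

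**Figure D3:**
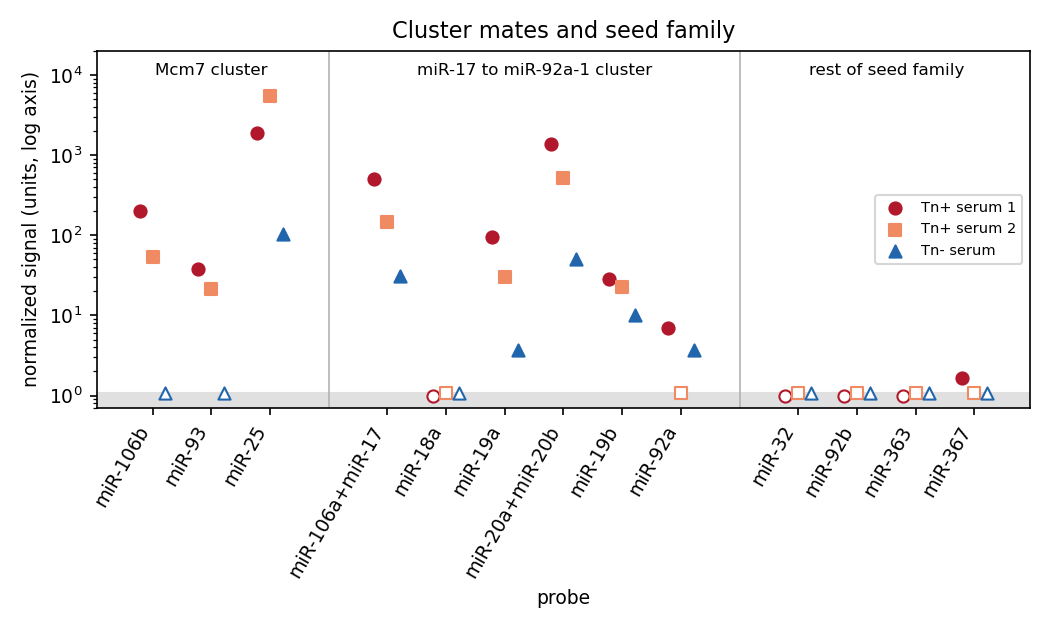
Normalized signal (units, log axis) of the Mcm7 cluster (left), the miR-17 to miR-92a-1 cluster (middle) and the rest of the seed family (right) in the 2 Tn+ sera and Tn- serum; open points are at the floor and the grey band ends at 1.09 units. miR-25 is the highest probe of its cluster in every serum, and miR-92a, at most 7.05 units, is below every other cluster probe but miR-18a in the Tn+ sera.

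Both clusters also hold miRNAs of the miR-17 seed. The miR-106a and miR-17 probe had 2.51-fold and 2.71-fold the signal of miR-106b in the Tn+ sera. It had 13.2-fold and 6.88-fold the signal of miR-93. That probe also reads miR-106a, of the X chromosome cluster, so its signal cannot be assigned to the miR-17 cluster. In Tn- serum miR-106b and miR-93 were at the floor and give no ratio.

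Relative to the abundant blood miRNAs, miR-25 had 0.0434 of the signal of miR-451 in Tn+ serum 1, 0.419 in Tn+ serum 2 and 0.0560 in Tn- serum. Its ratio to miR-16 was 0.716, 3.66 and 0.590 in the same order. For both, Tn+ serum 1 and Tn- serum lay close together and Tn+ serum 2 stood apart. The ratio to miR-486, a red cell miRNA encoded in Ank1, moved less, with 1.76 and 2.43 in the Tn+ sera and 1.05 in Tn- serum. Over miR-144, the remaining red cell marker, miR-25 had 3.91-fold the signal in Tn+ serum 1 and 32.2-fold in Tn+ serum 2. In Tn- serum, where miR-144 was at the floor, miR-25 had 32.2-fold the value of 3 grid steps. By miR-144, then, Tn+ serum 1 did not lie close to Tn- serum. Against miR-142-5p, a miRNA of white blood cells, miR-25 had 15.02-fold and 27.5-fold the signal in the Tn+ sera and 0.692-fold in Tn- serum. miR-142-5p was the probe of the 4 myeloid and platelet markers with the smallest difference between Tn+ and Tn- serum (0.07 on log2(signal + 1)). The others had more signal in both Tn+ sera than in Tn- serum, with 719 and 225 units against 136 for miR-223, 33.9 and 14.8 against the floor for miR-142-3p, and 21.4 and 3.88 against the floor for miR-146a. As a share of all signal, however, the 4 markers together held less in the Tn+ sera (1.51% and 1.39%) than in Tn- serum (6.87%). Over miR-223, miR-25 had 2.60-fold and 24.5-fold the signal in the Tn+ sera and 0.763-fold in Tn- serum. The part of red cell release in the level of miR-25 was not tested.

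**Figure D4:**
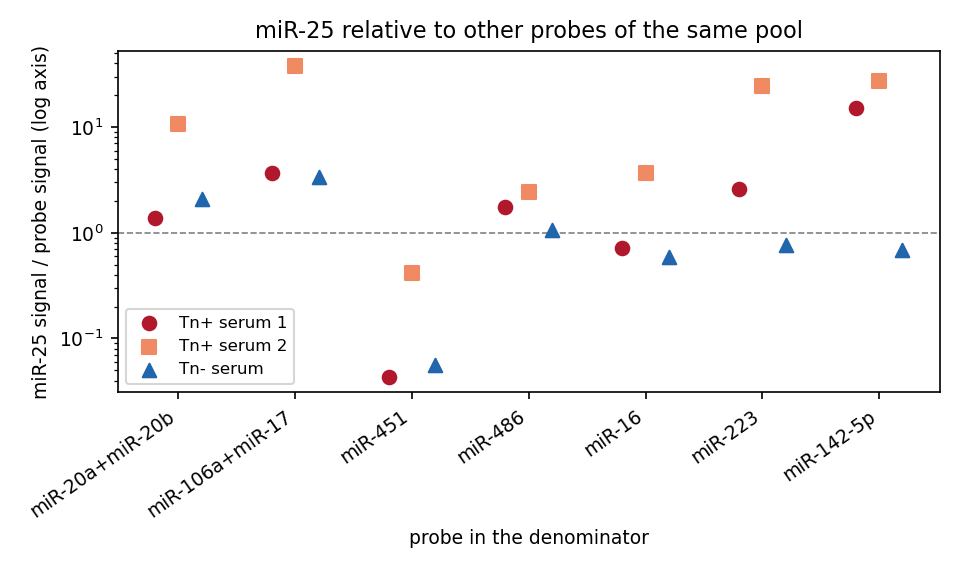
Signal of miR-25 divided by that of another probe of the same pool (log axis; the dashed line marks equal signal), for 7 probes above the floor in all 3 sera; each point is 1 pool. For miR-451, Tn+ serum 1 (0.0434) and Tn- serum (0.0560) lie together and Tn+ serum 2 (0.419) lies apart, whereas for miR-223 (2.60 and 24.5 against 0.763) and miR-142-5p (15.02 and 27.5 against 0.692) both Tn+ sera lie above Tn- serum.

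Of the 126 probes above the floor in both Tn+ sera, 71 were higher in Tn+ serum 2, with a median of 1.09-fold, and miR-25 was the 22nd by that ratio. Among the 20 with 100 units or more in both, 8 were higher in Tn+ serum 2. miR-25, at 2.95-fold, was exceeded among these by miR-2137 (3.81-fold) and followed by miR-486 (2.14-fold), while miR-451 and miR-144 had 3.27-fold and 2.78-fold more in Tn+ serum 1. The pattern of miR-25 over the 3 sera was most like those of the same miR-2137 and miR-486, at Euclidean distances of 0.83 and 0.86 between centred log2(signal + 1) values. miR-1198 (1.01), let-7c (1.01) and let-7b (1.04) came next, and these were at the floor in Tn- serum. The probes most like miR-92a were miR-484 (0.30), miR-568 (0.43), miR-2146 (0.53), miR-152 (0.60) and miR-669h-5p (0.80), none of which exceeded 12.4 units in any pool. Of the 258 candidates, miR-92a came 247th in likeness to miR-25. With 3 pools, these distances are descriptions.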

How the data were processed

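RNA from 200 µL of serum was eluted in 20 µL, and some 30 ng were hybridized over 16.5 h to the nCounter Mouse v1.5 microRNA panel of NanoString, which counts barcodes without amplification, per the labels' protocols. Groups held at least 8 mice. The deposited values are a normalized signal, which the authors obtained from the nCounter Advanced Analysis Software, as the design text of the series says; the submitters' processing notes name R 4.4. The sources used here do not give how background, floor and scaling were set. Both tables hold the same signal (1698 of 1698 values equal). Values up to 60 units above the floor lay within 0.05 steps of a regular grid, but were not whole multiples of its step, which left counts and depth unknown and no count model applicable.

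A linear model of log2(signal + 1) was fitted to all 566 probes with limma 3.58.1 (R 4.3.3), with Benjamini-Hochberg adjustment at 0.05 and 1 residual degree of freedom, from the Tn+ pools; Tn- serum is assumed to vary likewise. This scale understates differences of low probes. Gaps and shares were tested by exact permutation over pools. The limma script was tested on simulated data. Python 3.11.15 was used otherwise. Probes were matched to RefSeq (GRCm38.p6) by name, taking the arm with the shared seed, for 6 of 6 family members; the files hold no coordinates. Named probes were the members, their seed family and clusters, blood markers, neighbours in level and the 5 probes nearest in pattern to each member. Members and lists were chosen with earlier results of these data known. Alternatives were other pseudocounts, filters, scalings, denominators and floor values, and each Tn+ pool left out.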

Additional observations from a re-analysis of the deposited data

How the results depend on the processing

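The log2 difference of miR-25 stayed positive in all 14 alternatives, from 1.57 with equal totals to 5.72 without Tn+ serum 1. Many of these could not move it. Probe filters, the 3-step floor and the equal second copy of the signal left 4.93 as it was, and filtering left each scaled value unchanged. Only the other pseudocounts, the scalings and leaving out a Tn+ pool could change the sign. limma called miR-25 with only the probes above the floor somewhere (4.93, adjusted p = 0.00101) and with those averaging 10 units or more (4.93, adjusted p = 0.00495). It was also called with floor values at 3 grid steps (4.93, adjusted p = 1.24e-11). In those fits 1 SE, pooled over probes, served all of them. Both of these probe filters could keep a probe through its Tn+ level alone. miR-25 was also called with top-100 scaling (2.35, adjusted p = 0.0125). Over all 566 probes, the fits with top-100 scaling and with equal totals likewise used 1 pooled SE for every probe. Scalings fitted to all probes move the floor values themselves apart, so they called 336 (median of ratios), 460 (equal totals) and 369 (top-100) of 566 probes, and miR-92a with equal totals (-3.21) and top-100 scaling (-2.29). In an alternative chosen after seeing the data, the 3 scalings of the 58 probes averaging 10 units or more called no probe with limma, and miR-25 had an adjusted p of 0.262, 0.613 and 0.355 and an unadjusted p of 0.0377, 0.268 and 0.165. The sign of miR-92a turned with floor values at 3 grid steps (0.31) and ranged from -1.18 to 0.77 with 1 Tn+ pool left out. Probes called were 29 of 259 above the floor somewhere, 32 of 58 averaging 10 units or more, and 43 of 566 with the 3-step floor. The 2-fold count was 44 with a pseudocount of 5, 33, 10 and 18 after median-of-ratios, equal-total and top-100 scaling, and 96 to 120 with 1 Tn+ pool. The gap between the members and both shares kept their direction under every alternative run for them. miR-92a has a mean under 10 and gave no value under that filter. No paired analysis was possible because the labels pair neither Tn+ serum with Tn- serum. Few grid steps limit miR-92a throughout.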
